A study of Drosophila melanogaster with 27 samples.

Results

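The 5 serotonin receptor genes of Drosophila, 5-HT1A (FBgn0004168), 5-HT1B (FBgn0263116), 5-HT2A (FBgn0087012), 5-HT2B (FBgn0261929) and 5-HT7 (FBgn0004573), were found by their FlyBase identifiers among the 17529 genes of a gene count table, and their mRNA was followed across genotype and fraction. The table covered 27 libraries from adult fly heads, in which a split GAL4 driver, SS01276, expressed a transgene in the α/β and γ mushroom body neurons (MBNs, the Kenyon cells of the learning center of the fly brain). The transgenes were YFP-tagged human TDP-43 carrying the ALS-associated G298S change (G298S; w; UAS TDP43G298S-YFP, UAS mCD8-RFP), YFP-tagged human wild-type TDP-43 (WT; w; UAS TDP43WT-YFP, UAS mCD8-RFP) and YFP alone (YFP; yw;;P[UAS-2XEYFP]AH3). Each genotype was 1 transgenic line, only the TDP-43 lines carried mCD8-RFP, and males and females aged 1 to 3 days were pooled. From each of 3 lysates per genotype, named from their labels as G298S-503, then G298S-506, then G298S-203 for G298S, WT-502, then WT-505, then WT-202 for WT, and YFP-901, then YFP-902, then YFP-201 for YFP, GFP-Trap beads gave an immunoprecipitate (IP), the unbound fraction after the beads, and the input, which was the lysate of the whole head. A ratio of IP to input therefore set RNA recovered on beads with a protein made in MBNs against RNA of all head cells. The YFP lysates gave the background of tag, beads and driver, measured the same way. By the study's methods, YFP alone was made at much higher levels than the TDP-43 fusions, which limits it as a control, so every difference from YFP also carries that difference in level.

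Serotonin acts on the fly brain through these 5 G protein-coupled receptors. 5-HT1A and 5-HT1B couple to inhibitory G proteins and lower cAMP, 5-HT7 couples to the stimulatory G protein and raises cAMP, and 5-HT2A and 5-HT2B couple to Gq and phospholipase C. The mushroom body receives serotonin from a pair of large neurons, the DPM cells, and 5-HT1A in the mushroom body has known roles in sleep and memory. TDP-43 is an RNA-binding protein that is mislocalized in ALS and frontotemporal dementia, and its immunoprecipitation with bound RNA asks which mRNAs it associates with.

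Total counts ranged from 1848426 in the IP of G298S-503 to 157035496 in the input of G298S-203. The transgenes were not read from the gene table, so the genotype labels were not checked by them. The lowest count of any receptor in any library was 13, and all 5 receptors passed the filter on low counts. The IP of YFP-901 stood apart for 5-HT2B and 5-HT7, and for these receptors the comparisons with YFP in IP are also given without it. The 6 neuronal markers summed to 1456 to 1555 CPM (counts scaled to a common library size) in G298S inputs and to 1015 to 1651 CPM in WT inputs, against 521 to 811 CPM in YFP inputs, and the 12 photoreceptor markers to 11941 to 13960 and 17178 to 23918 CPM, against 28590 to 31107 CPM. The 11 Kenyon cell markers summed to 1800 to 2590 CPM in G298S IPs and 2180 to 2634 CPM in WT IPs, against 723 to 2175 CPM in YFP IPs. By the test defined with 5-HT1A, 5, 8 and 6 of the 11 were called higher in IP than in input in G298S, WT and YFP. Over all genes 7.39%, 10.5% and 10.3% were called higher, in that order of genotypes. No marker in these lists was at 0 counts in any library. The part of these marker differences in the receptor values was not tested. In whole-head RNA, fewer cells of a type and less RNA per cell cannot be told apart.

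In the inputs, mRNA for 5-HT1A, 5-HT1B and 5-HT2A lay at similar levels and 5-HT2B was the scarcest. Per kilobase of exon, 5-HT1A had a median of 2.78 CPM over the 9 inputs, with a range of 1.87 to 4.07. For 5-HT1B the median was 2.56 CPM per kilobase (1.48 to 3.02), and for 5-HT2A it was 2.55 (2.11 to 3.23). 5-HT7 had a median of 1.83 CPM per kilobase (0.666 to 2.66) and 5-HT2B one of 0.789 (0.340 to 1.05). 5-HT1A lay above 5-HT1B in 9 of 9 inputs, 5-HT2A above 5-HT7 in 8 of 9, and 5-HT2B lay lowest in 9 of 9, while 5-HT1B lay above 5-HT2A in 5 of 9 and these neighbours could not be ordered. The place of 5-HT2A in this order went with genotype, since 5-HT1A lay above it in 3 of 3 G298S inputs and 2 of 3 WT inputs, against 0 of 3 YFP inputs. All 5 exon models were long, from 4.03 kb for 5-HT1B to 6.33 kb for 5-HT2B, and none overlapped an exon of another gene.

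**Figure D1:**
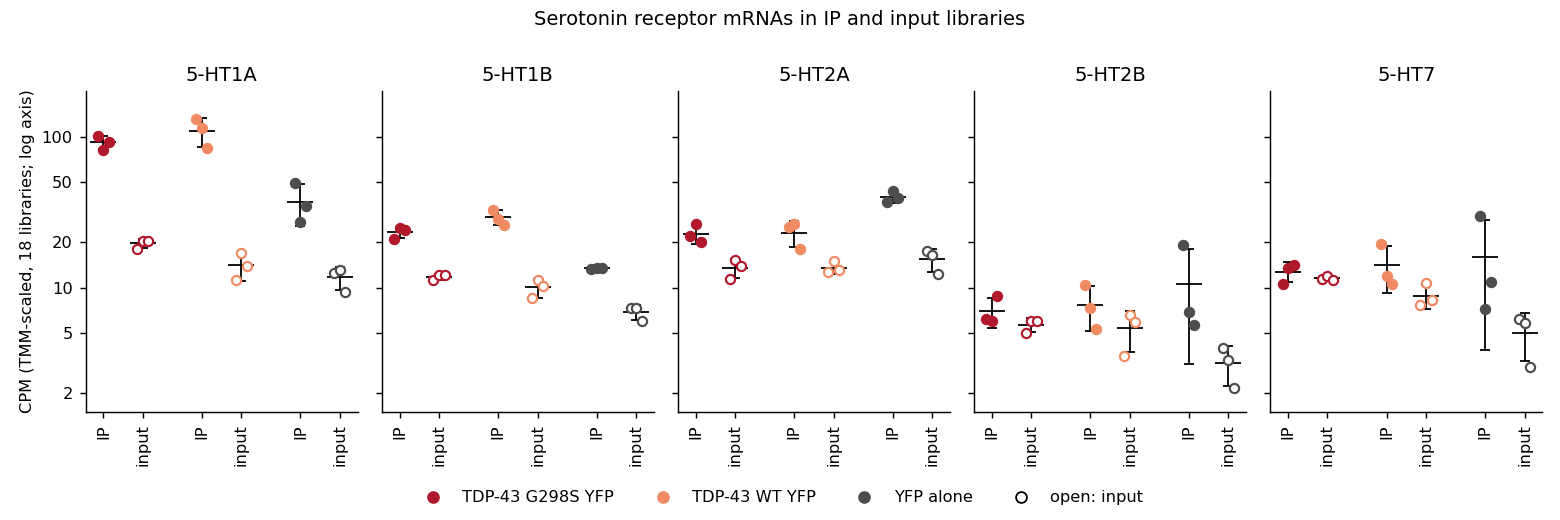
CPM of each serotonin receptor (log axis) in the IP (filled) and input (open) of every lysate, with mean ± SD bars, for G298S, WT and YFP. 5-HT1A in the TDP-43 IPs, at 82.3 to 132 CPM, lies above every other point of the plot, while 5-HT2A is highest in the YFP IPs, at 37.1 to 43.8 CPM.

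5-HT1A, an inhibitory receptor, was the receptor mRNA most abundant in the TDP-43 IPs. It had 102, 82.3 and 92.9 CPM in the IPs of the G298S lysates, in the order named above, against 18.1, 20.4 and 20.4 CPM in their inputs. It had 132, 114 and 84.3 CPM in the IPs of the WT lysates, against 11.1, 16.9 and 13.97 CPM in their inputs. The YFP IPs held 49.4, 27.1 and 34.7 CPM, against 12.6, 13.1 and 9.40 CPM in their inputs. IP and input did not overlap in any genotype, and neither TDP-43 group of IPs overlapped the YFP IPs. The share of all genes whose IP CPM lay apart in this way was not counted, here or for the receptors below, so these separations are a description. In edgeR's quasi-likelihood test over 12921 genes, with a call set at a Benjamini-Hochberg adjusted p under 0.05 and a log2 fold change over 1 in size, IP over input was called in all 3 genotypes. The log2 fold change was 2.23 ± 0.23 (SE) in G298S (4.68-fold, adjusted p = 8.77e-06), 2.97 ± 0.24 in WT (7.86-fold, adjusted p = 5.48e-07) and 1.67 ± 0.23 in YFP (3.17-fold, adjusted p = 0.00012). The WT value stood at the 99.6th percentile of all genes tested, the G298S value at the 99.0th and the YFP value at the 94.7th.

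5-HT1B, the other inhibitory receptor, was also higher in IP than in input, by less. The G298S IPs held 21.1, 24.9 and 24.1 CPM, against 11.2, 12.2 and 12.1 CPM in their inputs. The WT IPs held 32.9, 28.7 and 26.2 CPM, against 8.47, 11.3 and 10.3 CPM in their inputs. The YFP IPs held 13.3, 13.5 and 13.4 CPM, against 7.33, 7.36 and 5.98 CPM in their inputs. All 9 IPs lay above all inputs of their genotype, and the WT IPs lay above the G298S IPs without overlap. The log2 fold change was 0.99 ± 0.15 in G298S (adjusted p = 0.000206), 1.55 ± 0.15 in WT (2.92-fold, adjusted p = 3.09e-06) and 0.96 ± 0.15 in YFP (adjusted p = 0.000322), by edgeR. With the fold threshold at 1 on the log2 scale, only the WT value was called, and the G298S value passed it in 7 of 19 alternative settings, at up to 1.92, and the YFP value in 3 of 19, at up to 1.17.

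5-HT2A, which signals through Gq, showed the opposite order of genotypes. It had 22.0, 26.3 and 19.98 CPM in G298S IPs, against 11.4, 15.3 and 13.8 CPM in their inputs. It had 25.1, 26.3 and 17.95 CPM in WT IPs, against 12.6, 15.0 and 13.0 CPM in their inputs. The YFP IPs held 37.1, 43.8 and 39.3 CPM, above all 6 TDP-43 IPs, against 17.5, 16.5 and 12.4 CPM in their inputs. The log2 fold change of IP over input was 0.75 ± 0.18 in G298S (adjusted p = 0.00754), 0.77 ± 0.18 in WT (adjusted p = 0.00463) and 1.38 ± 0.18 in YFP (2.59-fold, adjusted p = 9.11e-05), by edgeR, and the YFP value alone was called.

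5-HT2B, the other Gq-coupled receptor, and 5-HT7, the receptor that raises cAMP, were called in YFP and not in the TDP-43 genotypes. 5-HT2B had 6.16, 6.03 and 8.81 CPM in G298S IPs, against 4.999, 5.98 and 6.01 CPM in inputs, and 10.4, 7.37 and 5.35 CPM in WT IPs, against 3.53, 6.62 and 5.92 CPM in inputs. In YFP it had 19.0, 6.89 and 5.61 CPM in IPs, against 4.001, 3.33 and 2.15 CPM in inputs. The 19.0 CPM of YFP-901 was the highest 5-HT2B value of these 18 libraries, and the other YFP IPs lay within the range of the TDP-43 IPs. 5-HT7 had 10.6, 13.6 and 14.2 CPM in G298S IPs, against 11.3, 11.95 and 11.2 CPM in inputs, and 19.6, 11.9 and 10.6 CPM in WT IPs, against 7.68, 10.7 and 8.23 CPM in inputs. In YFP it had 29.7, 7.21 and 10.9 CPM in IPs, against 6.22, 5.80 and 2.99 CPM in inputs. YFP-901 was again the highest of all, and the G298S IPs overlapped their inputs for 5-HT7. For 5-HT2B the log2 fold change was 0.32 ± 0.43 in G298S (95% interval -0.59 to 1.23), 0.53 ± 0.42 in WT (-0.38 to 1.43) and 1.73 ± 0.44 in YFP (3.32-fold, adjusted p = 0.00844, edgeR). For 5-HT7 it was 0.17 ± 0.41 in G298S (-0.70 to 1.05), 0.66 ± 0.41 in WT (-0.21 to 1.53) and 1.67 ± 0.42 in YFP (3.18-fold, adjusted p = 0.00849, edgeR). Without YFP-901 both YFP calls were lost, at 1.18 for 5-HT2B (adjusted p = 0.0676) and 1.05 for 5-HT7 (adjusted p = 0.0655). Without WT-502 the WT values were 0.02 for 5-HT2B and 0.25 for 5-HT7.

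Of the 5 receptors, 1 was called higher in IP than in input in G298S, 2 in WT and 4 in YFP. Over all genes tested, 7.39%, 10.5% and 10.3% were called higher in those genotypes in that order. The median log2 fold change of the receptors was 0.75 in G298S, 0.77 in WT and 1.67 in YFP, beside -0.16, -0.09 and -0.14 over all genes. Without YFP-901 the YFP count was 3, with 5-HT1A, 5-HT1B and 5-HT2A called, and the YFP median 1.18, and without YFP-902 the count was 5. 5-HT1A was the receptor called in all 3 genotypes.

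The comparison with YFP asks which mRNA the tagged TDP-43 held beyond the background of YFP alone, as the difference between 2 log2 ratios of IP over input in the same fit. For 5-HT1A it was 0.56 ± 0.32 for G298S (95% interval -0.11 to 1.23, adjusted p = 0.487) and 1.31 ± 0.32 for WT (0.64 to 1.98, adjusted p = 0.0533), by edgeR. The ratios per lysate did not overlap, at 2.01 to 2.48 in G298S and 2.59 to 3.56 in WT, against 1.04 to 1.97 in YFP. Over all genes, such ratios lay above those of YFP without overlap for 8.96% in G298S and 9.58% in WT, and below them for 14.7% and 9.18%. None of the 5 receptors was called in either comparison, while 0.348% of all genes were called higher and 0.371% lower for G298S, and 1.26% higher and 0.0542% lower for WT. At an unadjusted p under 0.05, 3 receptors passed for G298S, all lower, and 3 for WT, of which 2 were higher, and DESeq2 called 0 for G298S and 1 for WT.

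The WT difference of 5-HT1A lay on the threshold. It was called by DESeq2 (1.26, adjusted p = 0.00761), with a minimum of 10 counts in every library (1.30, adjusted p = 0.0205) and without mitochondrially encoded and rRNA genes (1.41, adjusted p = 0.0287). It was also called without YFP-901 (1.51, adjusted p = 0.0404), and it was 1.01 without WT-502 (adjusted p = 0.156). Of its 19 alternatives 6 called it and 13 did not, and the adjusted p ranged between 0.00477 and 0.203. The libraries carry a prefix in their labels, and only that of lysates G298S-203, WT-202 and YFP-201 was common to all 3 genotypes. Among those lysates the difference was 0.31 for G298S and 0.71 for WT, against 0.59 and 1.33 over all lysates on the same per-lysate scale. YFP-901 and YFP-902 carried a prefix of their own, so that prefix and genotype cannot be told apart in the other lysates.

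The other 4 receptors gave smaller or negative values. For 5-HT1B the difference from YFP was 0.03 ± 0.21 for G298S (95% interval -0.42 to 0.48) and 0.59 ± 0.21 for WT (0.14 to 1.03, adjusted p = 0.255). For 5-HT2A it was -0.62 ± 0.26 for G298S (-1.17 to -0.07, adjusted p = 0.289) and -0.60 ± 0.26 for WT (-1.15 to -0.06, adjusted p = 0.346), and neither group of per-lysate ratios overlapped that of YFP. For 5-HT2B it was -1.41 ± 0.61 and -1.20 ± 0.60 (adjusted p = 0.312 and 0.441), and for 5-HT7 -1.50 ± 0.59 and -1.01 ± 0.58 (adjusted p = 0.256 and 0.521), for G298S and WT in that order. None of these values passed the test, and the 5-HT2B ratios of G298S also lay below those of YFP without overlap. Without YFP-901 the differences for G298S and WT were -0.87 and -0.66 for 5-HT2B and -0.88 and -0.39 for 5-HT7, and that of 5-HT1B for G298S turned to -0.019. In the prefix common to all 3 genotypes the 5-HT1B value for G298S was -0.17. Scaling by library size alone moved the median of all genes for G298S over YFP to 0.66, against -0.02, and relative to those medians 5-HT1A was at 0.58 under either scaling and 5-HT2A at -0.59 under library size alone and -0.60 as tested.

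**Figure D2:**
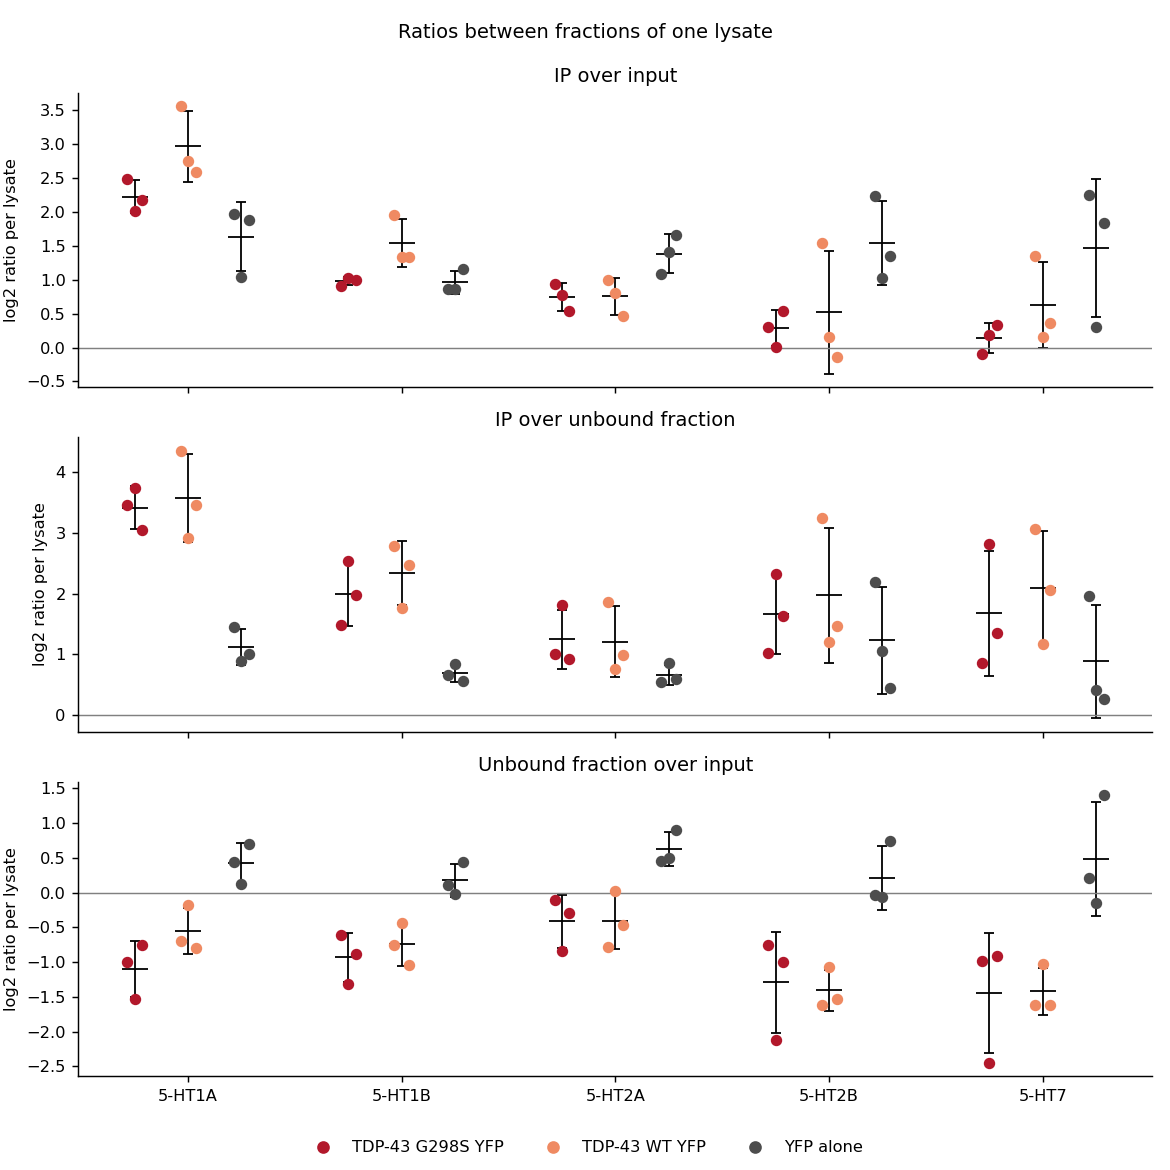
Log2 ratio of IP over input, IP over unbound and unbound over input for each serotonin receptor, with 1 point per lysate and mean ± SD, for G298S, WT and YFP. In the IP over input panel 5-HT1A runs from 2.01 to 2.48 in G298S and from 2.59 to 3.56 in WT, above 1.04 to 1.97 in YFP, and 5-HT2A runs the other way.

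The unbound fraction, taken after the beads, gave another reference. With it the 5-HT1A values were larger in G298S and WT and smaller in YFP, where IP over input was 1.67, and no receptor had a negative difference from YFP. IP over unbound was 3.30 for 5-HT1A in G298S (adjusted p = 3.36e-06) and 3.48 in WT (adjusted p = 1.61e-06), against 1.23 in YFP (adjusted p = 0.0106), by edgeR. The difference from YFP was then called for 5-HT1A in both genotypes, at 2.07 ± 0.40 for G298S (adjusted p = 0.0253) and 2.26 ± 0.40 for WT (adjusted p = 0.00477). For 5-HT1B it was 1.16 for G298S (adjusted p = 0.0699) and 1.51 for WT (adjusted p = 0.00642), of which the WT value was called. The sign turned for 5-HT2A (0.45 and 0.39), 5-HT2B (0.02 and 0.38) and 5-HT7 (0.30 and 0.85), and none of these was called. With this reference all 5 receptors were called in G298S and in WT, and 1 in YFP, and over all genes the share called higher was 13.9% in G298S and 15.4% in WT, against 5.74% in YFP. Relative to the median of all genes in those differences, 5-HT1A was at 2.18 for G298S and 2.35 for WT.

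The unbound fraction itself changed by genotype. 5-HT1A had 8.84, 6.16 and 11.0 CPM in the unbound fraction of G298S, against 17.7, 18.01 and 18.7 CPM in input, and 6.13, 14.5 and 6.79 CPM in that of WT, against 9.97, 16.4 and 11.9 CPM. In YFP it had 15.2, 13.1 and 16.1 CPM in the unbound fraction, against 11.2, 12.1 and 9.92 CPM in input. The unbound value was thus below its own input in all 6 TDP-43 lysates and above it in all 3 YFP lysates. In the edgeR fit of all 27 libraries, unbound over input for 5-HT1A was -1.05 ± 0.28 in G298S (adjusted p = 0.0238), -0.47 in WT (adjusted p = 0.268) and 0.42 in YFP. Calls were made at an adjusted p under 0.05. 5-HT1B fell by 0.90 in G298S (adjusted p = 0.0235) and by 0.70 in WT (adjusted p = 0.0308). 5-HT7 fell by 1.29 in G298S (adjusted p = 0.0494) and by 1.35 in WT (adjusted p = 0.0444), and 5-HT2B fell by 1.35 in WT (adjusted p = 0.0432). 5-HT2A, at -0.40 and -0.33, was not called.

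Thus 3 of 5 receptors were lower in unbound than in input in G298S, where 8.79% of all genes were, and 3 of 5 in WT, where 7.8% were. In YFP all 5 values were above 0, from 0.18 for 5-HT1B to 0.62 for 5-HT2A, and edgeR called 0% of all genes. At an unadjusted p under 0.05, 5-HT2A alone passed there, and DESeq2 called 9 genes, none of them a receptor. The neuronal markers had a median of -0.93 in the same G298S comparison with 1 of 6 called lower, and 5 of 11 Kenyon cell markers were called lower in each TDP-43 genotype. Their part in the receptor values was not tested. Leaving out any 1 G298S lysate ended all 3 G298S calls, as it ended those of all 2459 genes called in either direction, with values for 5-HT1A of -0.87 to -1.25 and adjusted p of 0.0793 to 0.333. Leaving out WT-502, WT-202 or G298S-203 ended all 3 WT calls, and leaving out G298S-503, WT-505 or YFP-902 left 1.

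**Figure D3:**
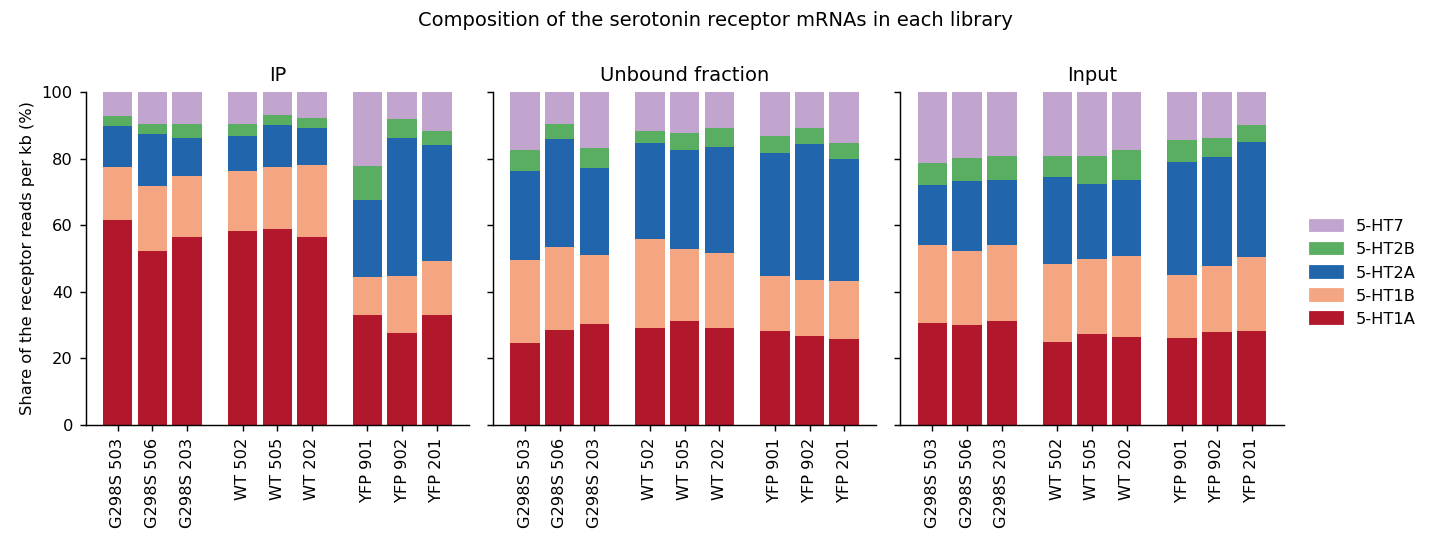
Share (%) of each serotonin receptor in the reads of the 5 receptors, per kilobase of exon, as stacked bars for the 27 libraries in panels of IP, unbound and input. 5-HT1A takes 52.2% to 61.6% in the 6 TDP-43 IPs and 24.6% to 33.2% in the other 21 libraries.

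Within the receptor set, a measure that needs no scaling between libraries, the TDP-43 IPs held a different mixture. Here each receptor's count per kilobase of exon was divided by the sum over the 5 receptors of the same library. 5-HT1A made up 52.2% to 61.6% of it in the 6 TDP-43 IPs, against 24.6% to 33.2% in the other 21 libraries. The IP share minus the input share was 26.2 ± 4.51 percentage points in G298S (SD, n = 3) and 31.6 ± 1.76 in WT (n = 3), against 3.89 ± 3.85 in YFP (n = 3). 5-HT2A made up 10.3% to 15.5% in the TDP-43 IPs, against 17.9% to 41.4% elsewhere, and 5-HT2B 2.83% to 4.25%, against 3.72% to 10.1%. 5-HT7 made up 6.91% to 9.68%, against 8.23% to 22.3% elsewhere. The share of 5-HT1B, at 15.9% to 21.8%, lay inside the 11.2% to 26.6% of the other libraries. The mixture in the IP of YFP-901 stood apart from the other YFP IPs, with the highest shares of 5-HT2B (10.1%) and 5-HT7 (22.3%) of any library. These shares are a description, since 3 lysates against 3 cannot give an exact two-sided permutation p below 0.1, and shares of 1 sum are bound to each other.

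The inputs compared the level of receptor mRNA in whole heads between genotypes. Between inputs a call needed an adjusted p under 0.05 alone, with no fold threshold, for receptors, markers and all genes. 5-HT1B averaged 11.8 ± 0.52 CPM in G298S inputs and 10.0 ± 1.43 CPM in WT inputs, against 6.89 ± 0.79 CPM in YFP inputs (SD, n = 3 each), and it was higher by 0.78 ± 0.15 in G298S (SE, adjusted p = 0.00196) and by 0.54 ± 0.15 in WT (adjusted p = 0.0265) on the log2 scale, by edgeR. 5-HT1A averaged 19.7 ± 1.33 and 14.02 ± 2.90 CPM, against 11.7 ± 2.001 CPM, and was higher in G298S by 0.75 ± 0.22 (adjusted p = 0.0217). 5-HT7 averaged 11.5 ± 0.39 and 8.86 ± 1.596 CPM, against 5.003 ± 1.76 CPM, and was higher in G298S by 1.205 ± 0.42 (adjusted p = 0.0419). The G298S inputs lay above the YFP inputs without overlap for these 3 receptors and for 5-HT2B, as they did for 32% of all genes. 5-HT2B (0.84, adjusted p = 0.148) and 5-HT2A (-0.19, adjusted p = 0.435) did not pass the test. So 3 of 5 receptors were higher in G298S inputs than in YFP inputs and 1 of 5 in WT inputs, beside 15.4% and 7.58% of all genes.

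Markers of the cells in a head moved with these input values. In the same G298S comparison 5 of 6 neuronal markers and 8 of 11 Kenyon cell markers were called higher, with medians of 1.13 and 0.96, and 12 of 12 photoreceptor markers were called lower, with a median of -1.40. In WT, 2 of 6, 3 of 11 and 5 of 12 were called in those directions, with medians of 0.97, 0.65 and -0.51. Over all 12921 genes, 3535 were called in G298S, 1986 of them higher, and 1932 in WT, 980 of them higher. The part of these markers in the receptor values was not tested. The 5-HT1A call was lost without G298S-506, G298S-203 or YFP-201 (adjusted p of 0.0708 to 0.0834), as was that of 5-HT7 without any 1 G298S lysate, WT-505, WT-202 or YFP-201, and the WT call of 5-HT1B without G298S-203, WT-505, WT-202, YFP-902 or YFP-201. The G298S call of 5-HT1B held without each lysate in turn.

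G298S and WT were not told apart at any receptor. The difference in IP over input, G298S minus WT, was -0.75 ± 0.31 for 5-HT1A (95% interval -1.41 to -0.08, adjusted p = 0.584) and -0.56 ± 0.21 for 5-HT1B (-0.997 to -0.12, adjusted p = 0.51), by edgeR. The per-lysate ratios of these receptors were lower in G298S than in WT without overlap, as were those of 11.7% of all genes. It was -0.02 ± 0.26 for 5-HT2A, -0.21 ± 0.60 for 5-HT2B and -0.49 ± 0.58 for 5-HT7. None of the 5 was called, at an adjusted p under 0.05 alone, where 0.263% of all genes were called in either direction, and 2 passed an unadjusted p under 0.05, while DESeq2 called 0. For 5-HT1A the value was -0.90 among the 4 lysates of these genotypes that shared another label prefix, G298S-506 and G298S-503 against WT-505 and WT-502, and -0.41 between G298S-203 and WT-202. In inputs, G298S over WT ran from -0.00 for 5-HT2A to 0.49 for 5-HT1A (adjusted p = 0.516), and edgeR and DESeq2 called none, where 0.108% of all genes were called higher by edgeR and 1 receptor passed an unadjusted p under 0.05.

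Receptors for the other biogenic amines were tested in the same fit. Of 4 dopamine receptors, 3 were called higher in IP than input in G298S, 3 in WT and 2 in YFP, beside the 7.39%, 10.5% and 10.3% of all genes given above. Against YFP 3 of 4 were called higher in each TDP-43 genotype, beside 0.348% of all genes for G298S and 1.26% for WT. Dop1R2, which has a known role in forgetting, had 3.53 in G298S and 4.52 in WT, against 0.70 in YFP, with differences of 2.83 (adjusted p = 0.00199) and 3.82 (adjusted p = 2.13e-05). Dop1R1, the receptor for learning in Kenyon cells, had differences of 1.74 (adjusted p = 0.0386) and 2.65 (adjusted p = 0.000895), and Dop2R, an inhibitory dopamine receptor, of 1.62 (adjusted p = 0.0132) and 2.56 (adjusted p = 5.42e-05). The G298S call against YFP was lost in 9 of 19 alternatives for Dop1R1, with any 1 G298S or YFP lysate or WT-202 left out among them (adjusted p up to 0.235), and in 5 of 19 for Dop2R, without any 1 G298S lysate, YFP-902 or YFP-201 (up to 0.114), while that of Dop1R2 and the 3 WT calls were kept in all 19. DopEcR, which binds dopamine and ecdysone, was called in YFP alone, at 1.497, and its differences were -0.95 and -0.55. Of 8 octopamine and tyramine receptors, 3 were called in G298S, 5 in WT and 3 in YFP, and 0 against YFP in either genotype. There 1 for G298S, lower than YFP, and 2 for WT, higher than YFP, passed an unadjusted p under 0.05 in edgeR. Oamb, an octopamine receptor of Kenyon cells, had 1.01 in G298S and 1.38 in WT, both called, against 0.39 in YFP, and the G298S call was lost in 5 of 19 alternatives, without any 1 G298S lysate among them (adjusted p up to 0.0738). 5-HT1A, at 1.31 for WT, lay below Dop1R1, Dop1R2 and Dop2R, and these differences between receptors were not tested.

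**Figure D4:**
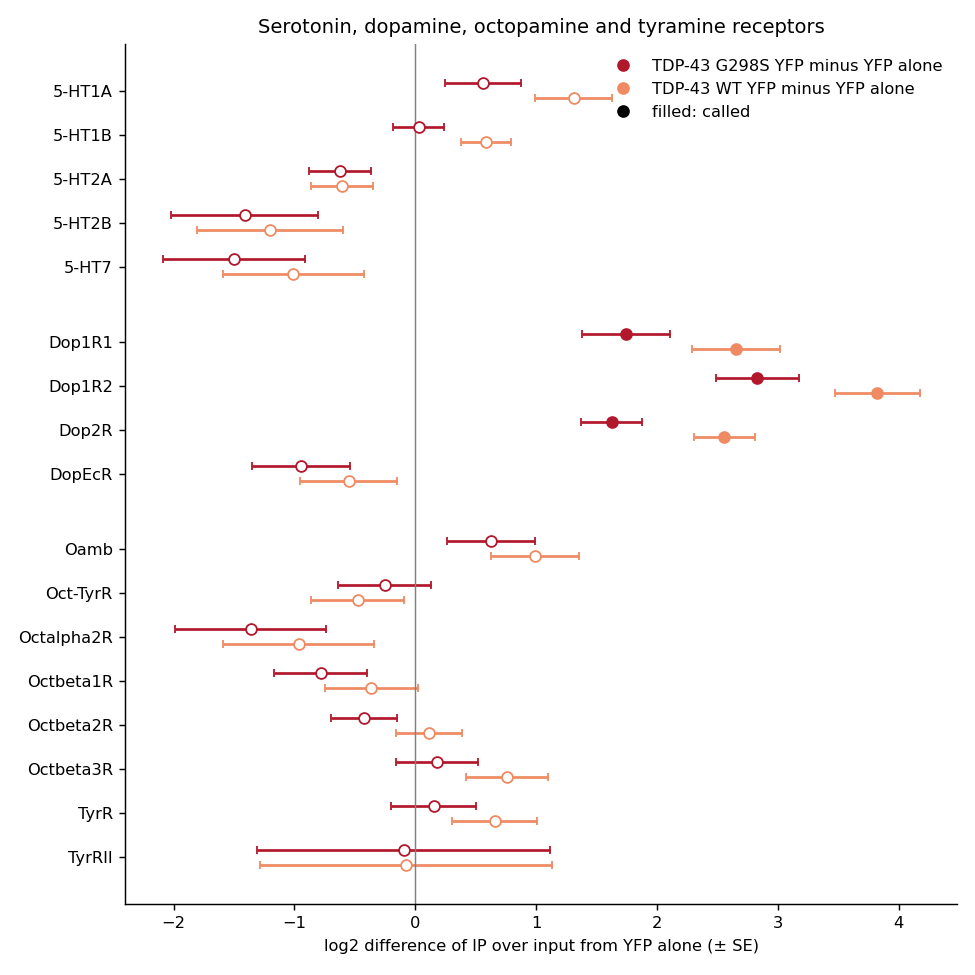
Log2 difference in IP over input from YFP (± SE) for the serotonin, dopamine and octopamine or tyramine receptors, for G298S and WT, with filled points for calls at an adjusted p under 0.05 and a log2 difference over 1 in size. Only Dop1R1, Dop1R2 and Dop2R are filled, and 5-HT1A in WT is open at 1.31.

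The genes that carry the signal on either side of the receptors were set against YFP as well. Of 20 G proteins and effectors of these pathways, 3 were called higher in IP than input in G298S and 9 each in WT and YFP. Over all genes the shares were 7.39%, 10.5% and 10.3% in G298S, WT and YFP. By edgeR 0 of the 20 were called higher than YFP in either genotype, beside 0.348% of all genes for G298S and 1.26% for WT. For G298S 1 was called lower, Ggamma1, a G protein gamma subunit named after its value was seen (-1.01, adjusted p = 0.0226), beside 0.371% of all genes. At an unadjusted p under 0.05, 8 of 20 passed for G298S, all lower, with a median of -0.54. For WT 3 passed, of which 2 were higher. rut, the adenylyl cyclase of learning, had 1.69 in G298S and 2.04 in WT, against 1.38 in YFP, and Pka-R2, a regulatory subunit of protein kinase A, had 1.14 and 1.82, against 1.17, all called. The G298S call of Pka-R2 was lost in 8 of 19 alternatives, with any 1 G298S or WT lysate left out among them (adjusted p up to 0.307). The highest values in YFP were those of norpA, a phospholipase C, at 2.56 and of dnc, a cAMP phosphodiesterase, at 2.06, both called, and the dnc call was lost without YFP-901 (1.22, adjusted p = 0.107). Galphaq, the partner of 5-HT2A and 5-HT2B, was at -0.30 in WT, against -0.45 in YFP, and Galphas, the partner of 5-HT7, was at -0.61 in G298S, against -0.03 in YFP. None of these Galphaq and Galphas values reached the fold threshold, and under library size alone Galphaq was at 0.07 in WT and Galphas at 0.27 in G298S and 0.17 in YFP. Of 6 genes of serotonin synthesis and transport, 2 were called higher in IP than input in G298S, 1 in WT and 0 in YFP, beside the same shares of all genes. Against YFP 1 of the 6 was called higher in each TDP-43 genotype, beside 0.348% of all genes for G298S and 1.26% for WT. This gene, prt, was also among the Kenyon cell markers. The median difference of the 6 from YFP was -0.02 for G298S and -0.19 for WT. prt, a vesicular transporter of the mushroom body, was called against YFP in both, at 2.27 (adjusted p = 0.0276) and 2.71 (adjusted p = 0.00373), and the G298S call was lost without any 1 G298S or YFP lysate (adjusted p of 0.0625 to 0.235). Trhn, which makes the neuronal serotonin precursor, had 1.42 in G298S, the only called value, 0.52 in WT and 0.91 in YFP, and Ddc, the decarboxylase of the next step, had -1.12 and -1.17, both called lower, against -0.66 in YFP. The 4 markers of serotonergic neurons summed to 673 to 736 CPM in G298S inputs and 612 to 798 CPM in WT inputs, against 418 to 543 CPM in YFP inputs. By the test between inputs, 1 of the 4 was called higher than YFP in each TDP-43 genotype, beside 15.4% of all genes for G298S and 7.58% for WT. Their median log2 difference was -0.02 for G298S and 0.10 for WT, beside 0.09 and 0.13 over all genes, so the sums did not reflect all 4 markers.

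Across the 27 libraries, the profiles of the receptors fell in pairs. The Pearson correlation of log2 CPM was 0.97 between 5-HT1A and 5-HT1B and 0.96 between 5-HT2B and 5-HT7, and 0.62 to 0.81 between all other pairs. The genes whose profile was most like that of 5-HT1A were Mef2, kek1 and trx (0.99 each), and for 5-HT1B they were Csk, px and SLO2 (0.98 each). For 5-HT2A they were hoe1 (0.92), CG7149 (0.91) and retn (0.91), so that no gene followed 5-HT2A as closely as those named for the other 4 receptors. For 5-HT2B they were Asx (0.98), Cbl (0.97) and Rtf1 (0.96), and for 5-HT7 Spt20 (0.98), RapGAP1 (0.98) and CG13375 (0.97). These points share lysates, depth and fraction, and the values are a description.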

How the data were processed

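RNA of 3 fractions of 9 lysates, 27 libraries in all, was sequenced. The authors deposited a table of read counts per gene, and the submitters' processing notes name bcl2fastq 2.19.1.403, cutadapt 2.7, STAR 2.6.1d and featureCounts 1.6.3, while the genome build and strand setting are not given in the sources used here. The p-values rest on the spread between libraries within groups, pooled over all groups of a fit. Lysates of a genotype outside a comparison therefore also bear on its p-values. Except with the lysate block, the fits did not pair the fractions of a lysate. Whether the 3 lysates of a genotype came from separate crosses is not stated.

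Gene names and exon lengths came from an Ensembl annotation that matched 17425 of 17529 identifiers. Counts were scaled by TMM, filtered by expression and tested with edgeR 4.0.16 (quasi-likelihood, R 4.3.3) over 18 IP and input libraries in 6 groups (12921 genes), and, for unbound over input and its CPM, over 27 libraries (13349 genes), with Benjamini-Hochberg adjustment over all genes. Log2 CPM used a prior count of 2. Alternatives were DESeq2 1.42.0, other scalings, filters, samples, a lysate block and leaving out each lysate. The IP, input and unbound fraction of a number came from 1 lysate. Their deviations correlated at 0.06 to 0.73 (IP and input) and 0.68 to 0.92 (unbound and input). Other genes named with values were those called or highest and lowest in their lists, and the genes most like each receptor by correlation. The members and lists were chosen with earlier results of these data known. The edgeR fit of the 18 libraries was run on simulated counts that had the same spread for all genes and no pairing of fractions. The fit of 27 libraries and the alternatives were not checked in this way.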

Additional observations from a re-analysis of the deposited data

Results flagged for a closer look

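In 3 of 15 comparisons of 2 genotypes over the 5 receptors, every lysate of one genotype had a ratio of unbound to input below 1 and every lysate of the other a ratio above 1. The mean log2 ratio of 5-HT1A in G298S minus that in YFP was -1.52, and that in WT minus that in YFP was -0.98. For 5-HT2A the mean in G298S minus that in YFP was -1.04. Over all genes, 10.9% showed this pattern in G298S against YFP and 9.51% in WT against YFP, in the same direction. These differences were not tested.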

How the results depend on the processing

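Of 1165 receptor values under alternative settings, 1016 were counted as kept, 96 changed call, 36 reversed and 17 moved without a test. A tested value was kept if its direction and call stayed. Values within a label prefix had no test. They were kept if they lay within the SD between lysates of the value over all lysates, and some of these changed sign. For 5-HT2B, G298S minus WT was 0.69 in the prefix common to all 3 genotypes, against -0.23 over all lysates, and was counted as kept. Where no cause is given, it was not tested. The number of receptors called in IP over input in G298S, 1 as tested, was 5 with library sizes alone and when set against the unbound fraction, 2 without mitochondrially encoded and rRNA genes, with all 27 libraries or with only the genotypes compared, and 1 to 2 with a lysate left out. In WT it was 5 and in YFP 1 with the unbound reference, against 2 and 4. Against YFP it was 1 for G298S with library sizes alone and with the unbound reference, and for WT 1 by DESeq2, with library sizes alone, with a minimum of 10 counts or without mitochondrially encoded and rRNA genes, 2 with the unbound reference and 0 to 1 with a lysate left out. In inputs, G298S over YFP gave 1, against 3, with library sizes alone and with all 27 libraries, and 1 to 3 with a lysate left out, and WT over YFP gave 0, against 1, with all 27 libraries or only the genotypes compared, and 0 to 1 with a lysate left out. For unbound over input it was 0 to 4 in G298S and 0 to 3 in WT with a lysate left out, and 0 in WT with only the genotypes compared.

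With library sizes alone, which moved the median of all genes in G298S IP over input to 0.72, against -0.16, these values reversed: 5-HT2A at 0.060 (G298S minus YFP) and 0.49 (G298S minus WT), 5-HT2B at 0.29 and 5-HT7 at 0.024 (G298S minus WT), 5-HT1B at -0.14, 5-HT2B at -0.29 and 5-HT7 at -0.0030 (input, G298S over WT), 5-HT1B and 5-HT2B at -0.15 each (unbound, YFP), prt at 0.19 and Galphas at 0.17 (YFP IP), Gprk1 at 0.21 and Galphas at 0.27 (G298S IP), and Galphaq at 0.071 and Gprk1 at 0.10 (WT IP). With the unbound reference the differences from YFP were 0.45 and 0.39 for 5-HT2A, 0.022 and 0.38 for 5-HT2B, 0.30 and 0.85 for 5-HT7 and 0.95 and 1.09 for DopEcR, for G298S and WT, and Gprk1 was at 0.21 and 0.45. The G298S minus WT values of 5-HT2A, near 0, were 0.021 by DESeq2, 0.018 with its size factors, 0.041 without mitochondrially encoded and rRNA genes, 0.029 with all 27 libraries, 0.031 with only the genotypes compared, 0.055 with the unbound reference and -0.14 to 0.10 with a lysate left out, and in inputs 0.0053 by DESeq2, 0.0050 with its size factors, 0.0046 without mitochondrially encoded and rRNA genes, 0.0175 with all 27 libraries, 0.0181 with only the genotypes compared and -0.10 to 0.10 with a lysate left out. With a lysate left out, 5-HT1B ranged between -0.019 and 0.13 (G298S minus YFP) and 5-HT2B between -0.49 and 0.30 (G298S minus WT), between -0.15 and 0.27 (input, G298S over WT) and -0.051 and 0.34 (unbound, YFP), prt between -0.22 and 0.25 and Galphas between -0.15 and 0.11 (YFP IP).

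With the lysate as a replicate block, the paired fit called 4 receptors lower in unbound than input in G298S, against 3, adding 5-HT2B (-1.22, adjusted p = 0.0214, edgeR), and changed no other receptor call. Inputs could not be blocked. Over all genes the block gave 2075 calls in G298S IP over input, against 1270, and 3880 and 3807 in unbound over input of G298S and WT, against 2459 and 2256. DESeq2 called 394 genes for G298S minus YFP, against 93, 286 for WT minus YFP, against 170, 105 for G298S minus WT, against 34, 261 and 3283 for the inputs of G298S over WT and WT over YFP, against 32 and 1932, and 3921 and 3503 for unbound over input. Library sizes alone gave 3991 in G298S IP over input, 1453, 301 and 1647 for G298S minus YFP, G298S minus WT and inputs of G298S over WT. A minimum of 10 counts gave 294 for G298S minus YFP, and leaving out a lysate gave 3 to 11 there for a G298S or YFP lysate and 67 to 134 for a WT lysate. At the lowest counts, 13 for 5-HT2B, counting error limits the precision.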
